A study of Mus musculus with 9 samples.

Results

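The microRNAs (miRNAs) of the imprinted Dlk1-Dio3 region were followed in the mouse olfactory bulb, the first relay of smell in the brain, where sensory axons from the nose end. Members were chosen by name, with earlier results of these data known. The list held every mouse probe on the array for 1 of 49 miRNA genes of the region, of which there were 97. A probe was kept if its signal over background was at least 30 on all arrays of 1 group. This left 56 members of the 462 mouse probes that passed the same filter, out of 1027 mouse probes in all. The male mice, 8 weeks old and of the outbred ICR strain, were exposed in a chamber to 3 ppm formaldehyde (FA), an irritant gas, for 6 hours per day over 7 days (FA 7 days, n = 3 arrays) or on 1 day (FA 1 day, n = 3), or were kept alike without formaldehyde (control, n = 3). The labels title the FA 1 day samples c1, c2 and c4 and the controls N1 to N3; groups follow the exposure entered for each sample, which is 1 day of formaldehyde for the first and none for the second. The RNA was labelled with the dye Hy3 and hybridised on single-colour Exiqon arrays. The labels do not say that each array holds a separate animal, nor when the control mice were dissected, so p-values measure only the spread between these samples. Fewer cells of a type and less miRNA per cell cannot be told apart in whole bulb RNA.

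The Dlk1-Dio3 region is imprinted: its long noncoding RNAs Meg3, Rian and Mirg and the miRNAs among them are transcribed from the maternal chromosome, while Dlk1, Rtl1 and Dio3 are expressed from the paternal one. The miRNA hairpins lie in clusters along these noncoding transcripts, are cut into a 5p and a 3p arm each, and are abundant in brain. A group of them lies antisense to Rtl1, a gene derived from a retrotransposon, and guides cleavage of the Rtl1 messenger RNA from the other chromosome.

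RefSeq (GRCm38.p6) holds 47 of the 49 hairpins, and all 47 lie on the plus strand of chromosome 12 between Dlk1 and Dio3, over 180.1 kb, from 109563692 to 109743795. Places within the region were assigned from general knowledge and not checked against gene positions. By these, 4 members belong to a group from Meg3 to Rtl1, 10 are antisense to Rtl1 and 1 lies in Rian. The large Mirg cluster holds 40, and miR-882 was not placed in any of these. Of the 56 members 24 are 5p arms and 31 are 3p arms, and 18 hairpins gave both arms. RefSeq gave the mature sequence of 53 members, 20 to 26 bases long, with a GC content of 23.8% to 72.7% (median 45.5%). It had none for miR-376c-3p, miR-487b-3p and miR-485-5p.

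The sequences below are the RefSeq mature miRNAs on which the results turn, 5′ to 3′, with the seed (bases 2 to 8, which pair with targets) in capitals. First come the members antisense to Rtl1, shown because both arms of all 5 hairpins were measured.
miR-431-5p: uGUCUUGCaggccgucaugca
miR-431-3p: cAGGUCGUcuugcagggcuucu
miR-433-5p: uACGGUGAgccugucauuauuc
miR-433-3p: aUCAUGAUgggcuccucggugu
miR-127-5p: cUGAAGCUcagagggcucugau
miR-127-3p: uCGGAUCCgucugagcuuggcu
miR-434-5p: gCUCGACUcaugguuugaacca
miR-434-3p: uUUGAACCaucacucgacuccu
miR-136-5p: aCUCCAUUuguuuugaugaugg
miR-136-3p: aUCAUCGUcucaaaugagucuu

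Next come members that differed widely among the control arrays, shown because the results on them rest on which controls are used: 3 that were high on control replicates 1 and 2, and 2 that were low on control replicate 2.
miR-770-3p: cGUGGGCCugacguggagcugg
miR-341-3p: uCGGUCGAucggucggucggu
miR-299-5p: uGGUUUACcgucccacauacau
miR-369-3p: aAUAAUACaugguugaucuuu
miR-410-3p: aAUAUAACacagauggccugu

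The last set holds the pairs of members that share a seed and nearly all other bases, so that a probe for one may also bind the other.
miR-376b-5p: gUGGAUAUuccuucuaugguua
miR-376c-5p: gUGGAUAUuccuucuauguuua
miR-379-3p: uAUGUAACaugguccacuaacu
miR-411-3p: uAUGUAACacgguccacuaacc

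The arrays themselves bear on every value that follows. Over all tested probes, FA 7 days replicate 3 and control replicate 2 stood apart, with root mean square deviations from the mean of the other 8 arrays of 0.641 and 0.880 log2 units, against 0.298 to 0.458 on the other 7. Of the 56 members, 41 were detected on FA 7 days replicate 3 and 51 on control replicate 2, against 55 or 56 on each other array. The median deviation of the members from their own 9-array means was 0.19, 0.08 and -0.07 after 7 days, 0.00, -0.00 and -0.01 after 1 day, and -0.11, -0.22 and 0.18 in control. By this median control replicate 2 was the lowest of the 9 arrays and control replicate 3 the second highest. The controls thus overlapped both exposed groups. The median deviation of the other 406 probes ran only from -0.05 (control replicate 1) to 0.05 (FA 7 days replicate 3). The 16 detected probes of neuronal and bulb miRNAs (miR-124, miR-128, miR-9, miR-7a and others) had median log2 intensities between 9.08 and 9.87 on all 9 arrays. The 10 detected probes of epithelial miRNAs lay higher, with medians between 10.21 and 11.24. No other tissue was set beside them, so these values cannot test the tissue label.

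**Figure D1:**
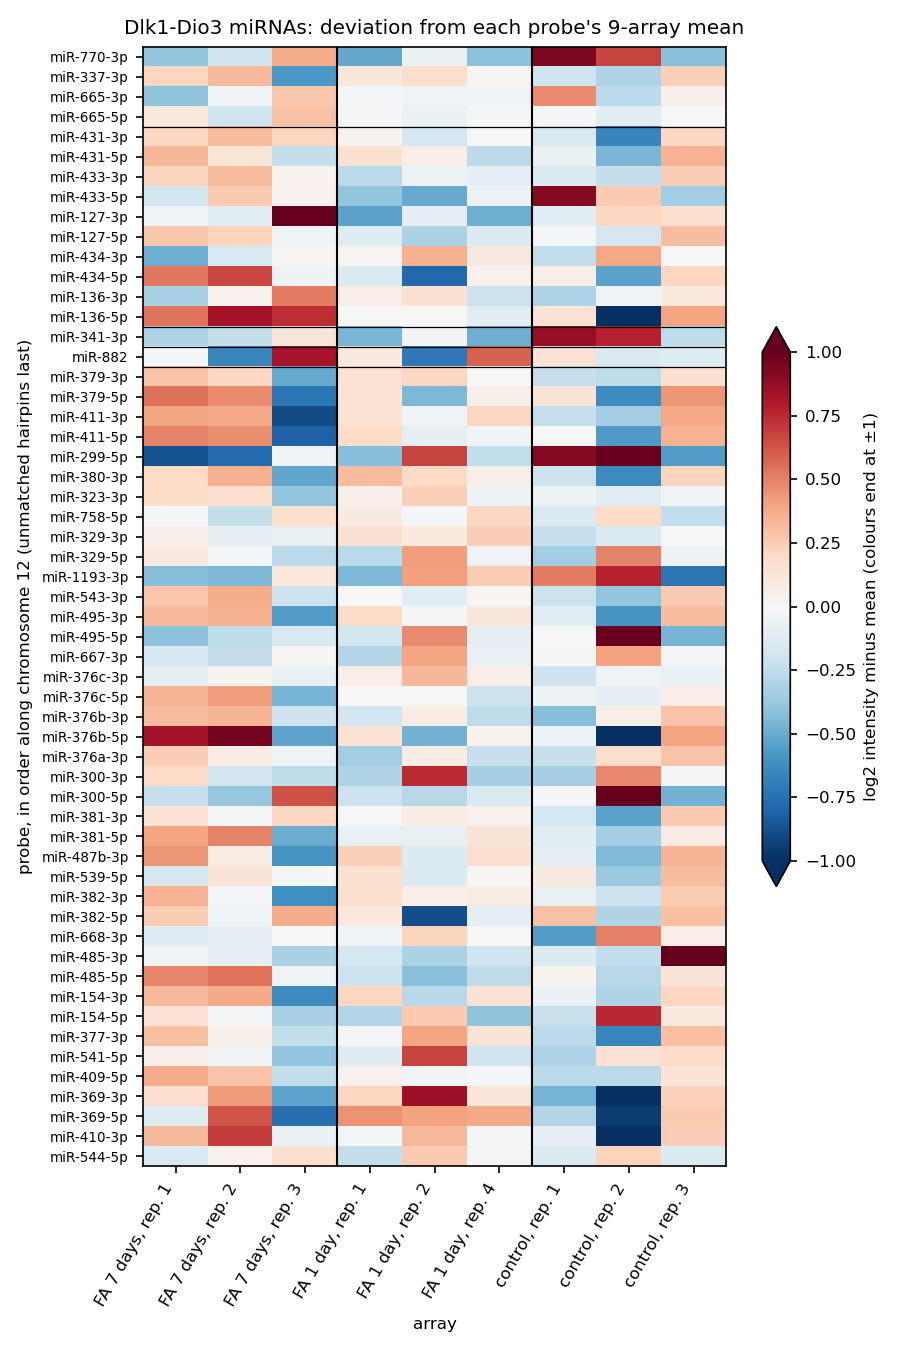
Deviation of each of the 56 members (one line each, in order along chromosome 12, horizontal lines separating the places in the region) from its mean over the 9 arrays, in log2 units, for FA 7 days, FA 1 day and control arrays from left to right. Colours end at a deviation of 1 in either direction. Control replicate 2 has 4 members beyond the blue end of the scale, the lowest of them miR-136-5p at -2.53. Control replicate 3 is mostly red, with 17 of 56 members below their own mean, against 54.4% of the other probes.

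After 7 days of formaldehyde no miRNA of the cluster passed the test against control, and the members were centred close to the other miRNAs. The median log2 difference from control was 0.09 over the 56 members and 0.06 over all 462 probes (for the members -0.01 with median scaling, -0.05 without normalization and -0.04 from the deposited ratios), and 38 members were above 0 (58.2% of all probes). With limma, 0 of 56 members passed an adjusted p of 0.05 (Benjamini-Hochberg over 462 probes), and 0 of 462 probes did (0%). At an unadjusted p under 0.05 stood 0 members, against 21 probes (4.55%). The members' differences ran from -1.13 to 1.37, and for 41 of them the 95% interval stayed within 1 log2 unit, a 2-fold change, on both sides of 0 (60.6% of all probes).

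After 1 day no miRNA of the cluster passed either. The median difference from control was 0.05 over the members and 0.06 over all probes (for the members -0.11 with median scaling and -0.13 without normalization), with 33 members above 0 (57.4% of all probes). Again 0 of 56 members and 0 of 462 probes (0%) passed with limma, and 1 member, miR-341-3p, had an unadjusted p under 0.05 (6.28% of all probes). Differences ran from -0.79 to 0.81, and the 95% interval stayed within 1 log2 unit for 40 members (60.2% of all probes).

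FA 7 days against FA 1 day had a median difference of 0.04 over the members and -0.00 over all probes, with 31 members above 0 (49.6% of all probes). By limma 0 of 56 members and 0 of 462 probes (0%) passed. Only miR-485-5p had an unadjusted p under 0.05, against 8.23% of all probes. Differences ran from -0.56 to 0.74, and 38 members had a 95% interval within 1 log2 unit (59.5% of all probes). The median standard error was 0.27 for the members and 0.27 for all probes. Standard errors and p-values come from the spread within all 3 groups, so the controls enter those of FA 7 days versus FA 1 day too: without control replicate 2, 3 of 56 members and 57 of 462 probes (12.3%) had an unadjusted p under 0.05 there. The 2 comparisons with control share the control arrays, so their values are not independent. Single arrays weighed on most differences. When each of the 9 arrays was left out in turn, the difference of 31 members in FA 7 days versus control, 29 in FA 1 day versus control and 26 in FA 7 days versus FA 1 day turned its sign at least once.

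**Figure D2:**
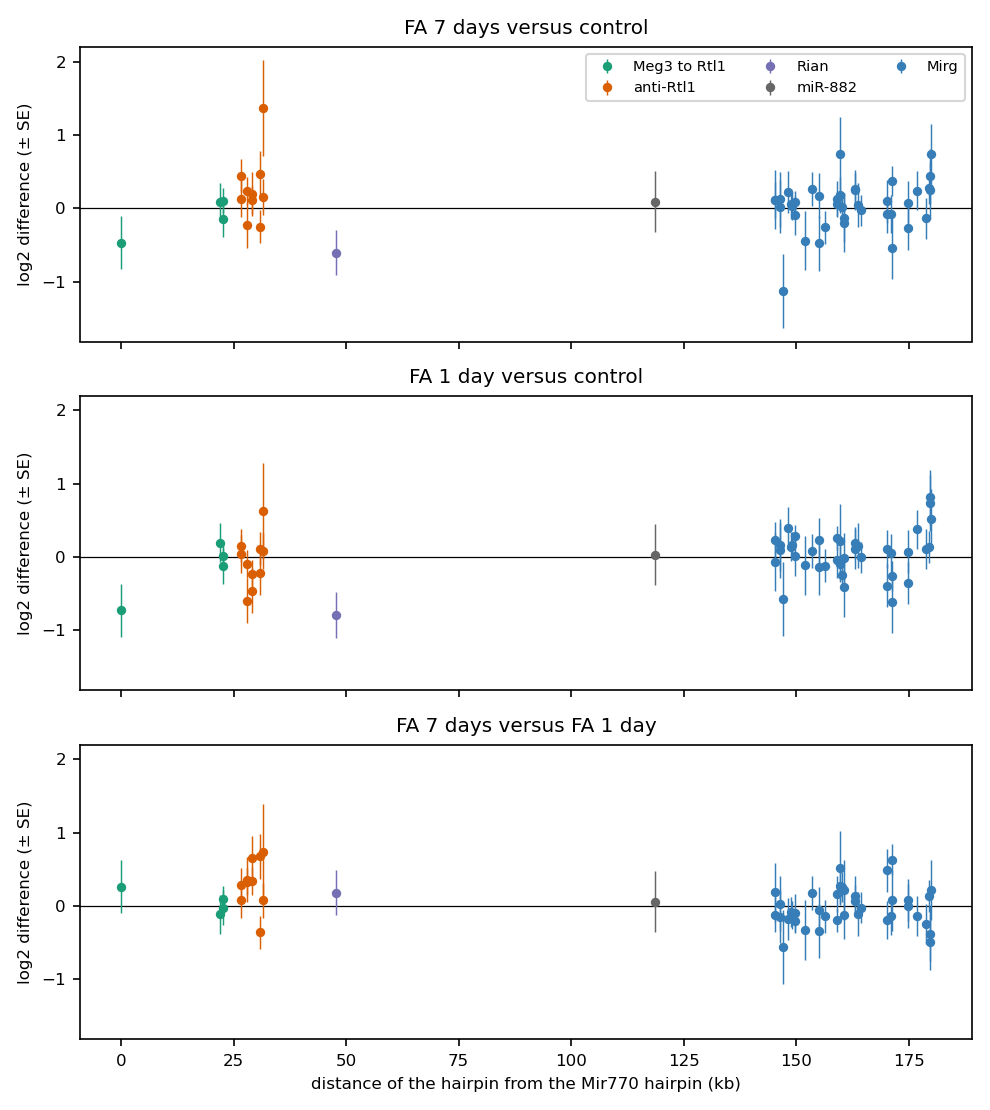
Log2 difference (± SE) of the members whose hairpin has a position, against the distance in kb of the hairpin from that of miR-770, for FA 7 days versus control, FA 1 day versus control and FA 7 days versus FA 1 day from top to bottom. In the lowest panel 9 of 10 members antisense to Rtl1 (orange) lie above 0.

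The 10 members antisense to Rtl1, both arms of 5 hairpins, had the highest median of the 5 sets by place between the exposures. The sets in Rian and not placed held only 1 member each, and that from Meg3 to Rtl1 held 4. In FA 7 days versus FA 1 day, 9 of the 10 antisense to Rtl1 were above 0 (49.6% of all probes). Their median was 0.33, against -0.00 for all probes. The groups did not overlap for 4 of the 10, against 20.1% of all probes. With limma 0 of the 10 passed the test in any comparison, and 0 had an unadjusted p under 0.05. Against control, 8 of 10 were above 0 after 7 days (median 0.18) and 5 of 10 after 1 day (median -0.03), and the groups did not overlap for 2 of the 10 after 7 days (10.6% of all probes) and 0 after 1 day (14.9% of all probes). By array, the median deviation of the 10 was 0.22, 0.24 and 0.04 after 7 days, -0.06, -0.07 and -0.11 after 1 day, and -0.09, -0.20 and 0.21 in control. Control replicate 3 therefore lay with the FA 7 days arrays and control replicate 2 below all FA 1 day arrays. The list was fixed by place, but it was singled out here after its values were seen.

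miR-127-3p, the best known of the group for its match to Rtl1, had log2 intensities of 10.78, 10.70 and 11.83 after 7 days, 10.29, 10.73 and 10.33 after 1 day, and 10.70, 11.03 and 10.99 in control. The high value on FA 7 days replicate 3, which stands apart, sets the 7-day mean. The difference from FA 1 day was 0.65 ± 0.31 (SE, limma, adjusted p = 0.557), or 0.29 without that array. Its other arm, miR-127-5p, had 9.41, 9.36 and 9.09 after 7 days, 9.02, 8.82 and 9.0 after 1 day and 9.11, 8.97 and 9.44 in control. Here the exposed groups did not overlap, by a margin of less than 0.1, and control lay across both.

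miR-433-3p had 8.75, 8.84 and 8.56 after 7 days, 8.25, 8.47 and 8.42 after 1 day, and 8.38, 8.29 and 8.77 in control. All 7-day arrays lay above all 1-day arrays, with a difference of 0.33 ± 0.19 (SE), and control replicate 3 again lay with the 7-day values. miR-434-5p had 9.20, 9.34 and 8.62 after 7 days, 8.52, 7.89 and 8.71 after 1 day, and 8.73, 8.13 and 8.89 in control. Its exposed groups overlapped through FA 7 days replicate 3 and FA 1 day replicate 4, at a difference of 0.68 ± 0.31 (adjusted p = 0.557; 0.43 without FA 1 day replicate 2). miR-434-3p, from the same hairpin, was the 1 member of the group below 0, at -0.36 ± 0.22.

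miR-136-5p had the widest difference of the cluster after 7 days. Its log2 intensities were 10.12, 10.42 and 10.33 after 7 days, 9.59, 9.59 and 9.47 after 1 day, and 9.74, 7.06 and 9.98 in control. The 7-day arrays lay above all others and were tight, while control replicate 2 lay far below the other controls. The difference from control was 1.37 ± 0.65 (SE) after 7 days (adjusted p = 0.701) and 0.63 ± 0.65 after 1 day (adjusted p = 0.827). Without control replicate 2 these became 0.43 and -0.31. The 3p arm of this hairpin differed by 0.15 ± 0.24 after 7 days.

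miR-431-3p had 7.04, 7.14 and 7.05 after 7 days, 6.87, 6.66 and 6.83 after 1 day, and 6.69, 6.17 and 7.04 in control. The 7-day values lay above both other groups, above control replicate 3 by less than 0.01, and the difference from control was 0.44 ± 0.23 (adjusted p = 0.701; 0.21 without control replicate 2, where its signal over background was 13.8). miR-431-5p and miR-136-3p differed by 0.04 to 0.15 in the 3 comparisons, and miR-433-5p by -0.23 ± 0.31 after 7 days and -0.59 ± 0.31 after 1 day (0.08 and -0.27 without control replicate 1).

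**Figure D3:**
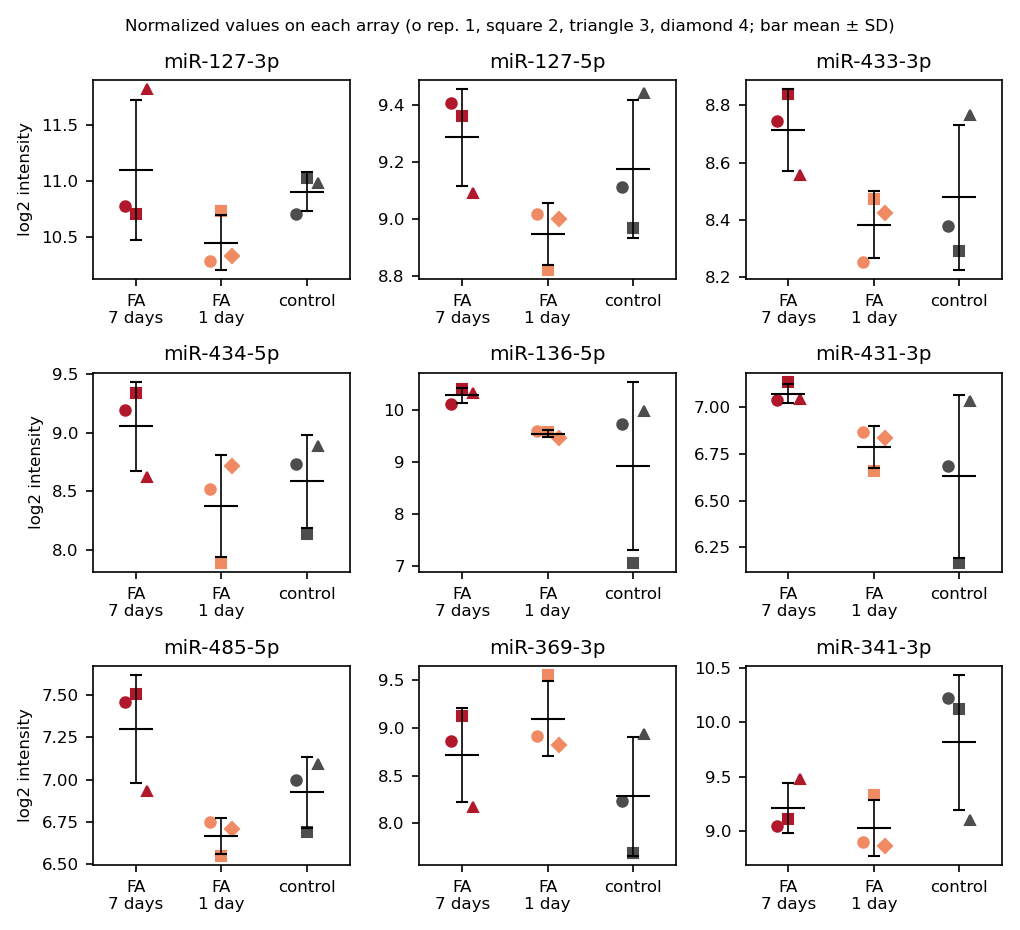
Normalized log2 intensity of 9 members on each array, for FA 7 days, FA 1 day and control from left to right; symbols give the replicate number, and the bar and whiskers the mean ± SD of 3 arrays. Scales differ between panels. Control replicate 2 lies lowest for miR-136-5p, at 7.06, and control replicates 1 and 2 lie above all exposed arrays for miR-341-3p.

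In the large Mirg cluster, 27 of 40 members were above 0 after 7 days (median 0.07), 25 after 1 day (median 0.09), and 18 in FA 7 days versus FA 1 day (median -0.07). miR-485-5p, known in rat neurons for repressing the synaptic vesicle protein SV2A, had 7.45, 7.51 and 6.93 after 7 days, 6.75, 6.55 and 6.71 after 1 day, and 7.00, 6.69 and 7.09 in control. All 7-day arrays lay above all 1-day arrays, and control overlapped both. The difference between the exposures was 0.63 ± 0.21 (SE, limma, unadjusted p = 0.0153, adjusted p = 0.422). It was positive in the 19 of 20 alternative settings that tested it, from 0.52 to 1.36. Those that left out only control arrays, or the detection filter, could not change this difference. A detection limit of 50 left the member out. Of the 19, 1 (limma with array weights) passed it, at 0.74 with an adjusted p of 0.0203, and its own adjusted p ran from 0.0203 to 1.0 over the 19. The 1-day values rest on dim spots, since signal over background was 38.5, 29.0 and 44.25. The 3p arm, miR-485-3p, had 7.78, 7.72 and 7.50 after 7 days, 7.64, 7.50 and 7.62 after 1 day, and 7.68, 7.57 and 9.35 in control, so that its difference from control (-0.54 ± 0.42 after 7 days and -0.61 ± 0.42 after 1 day) rested on control replicate 3 (0.04 and -0.04 without it).

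miR-369-3p, known in human cells for pairing with an AU-rich element, had 8.87, 9.12 and 8.17 after 7 days, 8.92, 9.55 and 8.82 after 1 day, and 8.23, 7.69 and 8.93 in control. Its difference after 1 day was 0.81 ± 0.37 (adjusted p = 0.657), with control replicate 3 inside the exposed range, and 0.52 without control replicate 2. The other arm, miR-369-5p, had 7.07, 7.82 and 6.44 after 7 days, 7.64, 7.59 and 7.57 after 1 day, and 6.90, 6.24 and 7.45 in control. All 1-day arrays lay above all controls, at a difference of 0.74 ± 0.39 (0.42 without control replicate 2), although it was kept through FA 1 day alone. Also above all controls after 1 day, by small amounts, were miR-329-3p (0.29 ± 0.16), known to be induced by activity in rat neurons, and miR-376c-3p (0.26 ± 0.16). Non-overlap with control was found for 2 members after 7 days (miR-136-5p and miR-431-3p, both higher; 8.87% of all probes were higher and 1.73% lower) and for 3 after 1 day (all higher; 10.6% and 4.33% of all probes).

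Between the exposures, 7 members did not overlap (20.1% of all probes). At higher values after 7 days were 5, miR-136-5p, miR-433-3p, miR-485-5p, miR-127-5p and miR-431-3p (11.9% of all probes). At lower values were 2 (8.23% of all probes), miR-329-3p (-0.20 ± 0.16) and miR-376c-3p (-0.20 ± 0.16). Other members with the smallest p in that comparison were miR-382-5p (0.49 ± 0.29), miR-376a-3p (0.26 ± 0.20), miR-299-5p (-0.56 ± 0.50), miR-369-5p (-0.49 ± 0.39), miR-369-3p (-0.38 ± 0.37), miR-495-5p (-0.34 ± 0.37) and miR-541-5p (-0.25 ± 0.28), all with overlapping groups. Without FA 1 day replicate 2 those of miR-382-5p, miR-299-5p, miR-369-3p, miR-495-5p and miR-541-5p became 0.19, -0.23, -0.15, -0.14 and 0.03, and without FA 7 days replicate 3 that of miR-369-5p became -0.16. That of miR-376a-3p became 0.17 without FA 1 day replicate 1.

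A second kind of pattern lay within the control group. For 4 members, miR-770-3p, miR-341-3p, miR-299-5p and miR-1193-3p, control replicates 1 and 2 lay above all 6 exposed arrays while control replicate 3 did not. miR-341-3p, the 1 member in Rian, had 9.04, 9.11 and 9.47 after 7 days, 8.90, 9.33 and 8.86 after 1 day, and 10.22, 10.12 and 9.10 in control. The first and second control values lay above every exposed one and the third among them. Its differences were -0.60 ± 0.31 after 7 days (adjusted p = 0.701) and -0.79 ± 0.31 after 1 day (unadjusted p = 0.0327, adjusted p = 0.657). Without control replicate 3 they were -0.96 and -1.14, and without control replicate 1 or 2 they were smaller in size. With either of those 2 left out, 0 of 56 members had an unadjusted limma p under 0.05 after 1 day (4.98% of all probes).

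miR-299-5p, whose probe also names miR-299b-5p, had 7.50, 7.59 and 8.33 after 7 days, 7.95, 9.04 and 8.12 after 1 day, and 9.29, 9.71 and 7.81 in control. The difference after 7 days was -1.13 ± 0.50 (adjusted p = 0.701), -1.69 without control replicate 3 and -0.74 without control replicate 2. miR-770-3p, whose hairpin is the first of the span, had 8.30, 8.49 and 9.06 after 7 days, 8.18, 8.62 and 8.28 after 1 day, and 9.62, 9.36 and 8.27 in control, with differences of -0.47 ± 0.36 after 7 days and -0.73 ± 0.36 after 1 day (-0.20 and -0.46 without control replicate 1). Among the controls these 3 members differed more than the exposed arrays did among themselves. miR-1193-3p differed by -0.44 ± 0.40 after 7 days (-0.15 without control replicate 2 and -0.90 without control replicate 3). Other members lower after 7 days, none past the threshold, were miR-495-5p (-0.48 ± 0.37), miR-667-3p (-0.26 ± 0.22) and miR-434-3p (-0.25 ± 0.22), and after 1 day miR-127-3p (-0.46 ± 0.31), miR-382-5p (-0.39 ± 0.29), miR-485-5p (-0.26 ± 0.21) and miR-127-5p (-0.23 ± 0.19). Without control replicate 2 the 7-day differences became -0.04 for miR-495-5p, -0.12 for miR-667-3p and -0.08 for miR-434-3p. The 1-day difference became -0.09 for miR-382-5p without FA 1 day replicate 2, and also -0.09 for miR-127-5p without control replicate 3. Higher with the smallest p, besides those above, were miR-410-3p (0.74 ± 0.41), miR-376b-5p (0.74 ± 0.51), miR-434-5p (0.47 ± 0.31), miR-485-5p (0.37 ± 0.21), miR-409-5p (0.27 ± 0.21) and miR-433-3p (0.24 ± 0.19) after 7 days, and miR-377-3p (0.38 ± 0.27), miR-380-3p (0.40 ± 0.29) and miR-410-3p (0.52 ± 0.41) after 1 day. Of these, miR-380-3p was kept through FA 1 day alone, which favours a high value there, and was detected on 1 of 3 control arrays. miR-410-3p lay at 8.89, 9.26 and 8.49 after 7 days, 8.55, 8.89 and 8.55 after 1 day, and 8.48, 7.13 and 8.81 in control, and its differences became 0.23 and 0.02 without control replicate 2. Without that array the 7-day differences also became 0.25 for miR-376b-5p, 0.24 for miR-434-5p and 0.14 for miR-433-3p, and the 1-day differences 0.15 for miR-377-3p and 0.19 for miR-380-3p. That of miR-409-5p after 7 days became 0.15 without FA 7 days replicate 1.

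Members sorted by GC content moved with single arrays, more widely at low and middle than at high GC content. For the 16 members under 40% GC the median deviation was 0.31, 0.35 and -0.36 after 7 days, 0.04, 0.12 and -0.01 after 1 day, and -0.10, -0.28 and 0.23 in control. For the 19 members of 40% to under 50% GC it was 0.10, 0.13 and -0.21 after 7 days, 0.03, 0.07 and 0.02 after 1 day, and -0.20, -0.27 and 0.19 in control. For the 18 members of 50% GC or more it was 0.13, -0.06 and 0.02 after 7 days, -0.13, -0.04 and -0.10 after 1 day, and -0.06, -0.11 and 0.08 in control. The low-GC and the middle-GC members thus both lay on opposite sides of their means within both the 7-day and the control group. Across the 53 members with a sequence, which share each array's labelling and hybridisation, the correlation of GC content with the deviation ran from -0.39 (FA 1 day replicate 1) to 0.34 (control replicate 1), as a description. The part of GC content in the differences between groups was not tested.

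**Figure D4:**
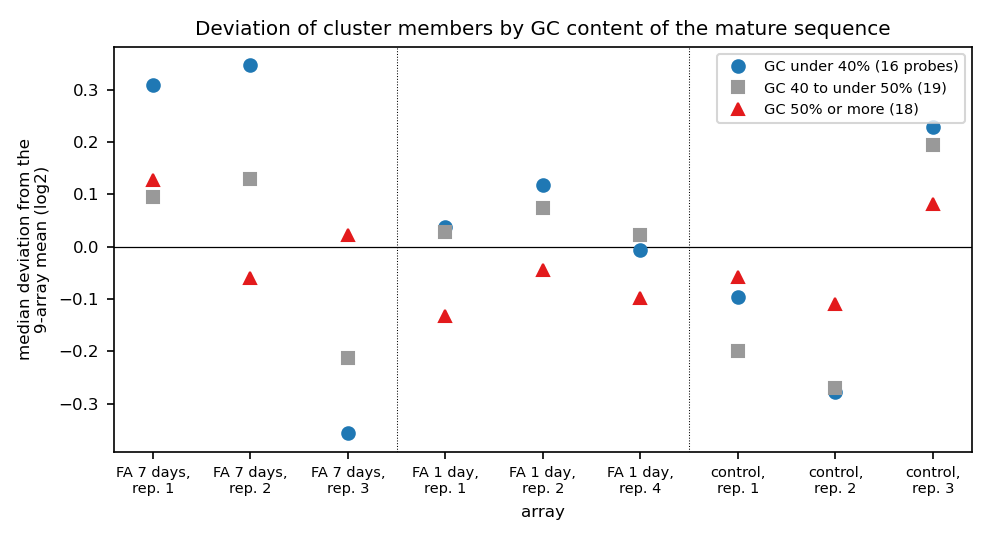
Median deviation from the 9-array mean, in log2 units, of the members of low (blue), middle (grey) and high GC content (red) on each array, for FA 7 days, FA 1 day and control from left to right. The low-GC members lie at -0.36 on FA 7 days replicate 3 and at 0.35 on FA 7 days replicate 2, the middle group lies at -0.21 and 0.13 there, and the high-GC members stay within 0.14 of 0.

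The arms of a hairpin are cut from the same precursor and here had probes of their own. In the 18 hairpins with both arms kept, the arms had differences of the same sign in 10 after 7 days, 10 after 1 day and 11 in FA 7 days versus FA 1 day, with median gaps in size of 0.22, 0.31 and 0.27. The widest gaps were 1.21 for miR-136 after 7 days, with 1.37 for 5p and 0.15 for 3p, and 1.04 for miR-434 in FA 7 days versus FA 1 day, with 0.68 for 5p and -0.36 for 3p. Without control replicate 2, where the gap between the arms' deviations was -2.50, the 7-day gap of miR-136 became 0.25, and the widest was then that of miR-485, at 1.11. For miR-434, the gap between the arms' deviations was 1.01, 0.82 and -0.08 after 7 days and -0.18, -1.14 and -0.05 after 1 day. After 7 days the arms of miR-379 and miR-381 differed by 0.01 in each case and those of miR-411 by 0.10, while those of miR-485 differed by 0.91 (0.42 without control replicate 3) and those of miR-434 by 0.72 (0.32 without control replicate 2). The hairpins miR-127, miR-154, miR-300, miR-329, miR-369, miR-376b, miR-376c, miR-382, miR-431, miR-433, miR-495 and miR-665 had gaps of 0.06 to 0.65 in size in that comparison.

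**Figure D5:**
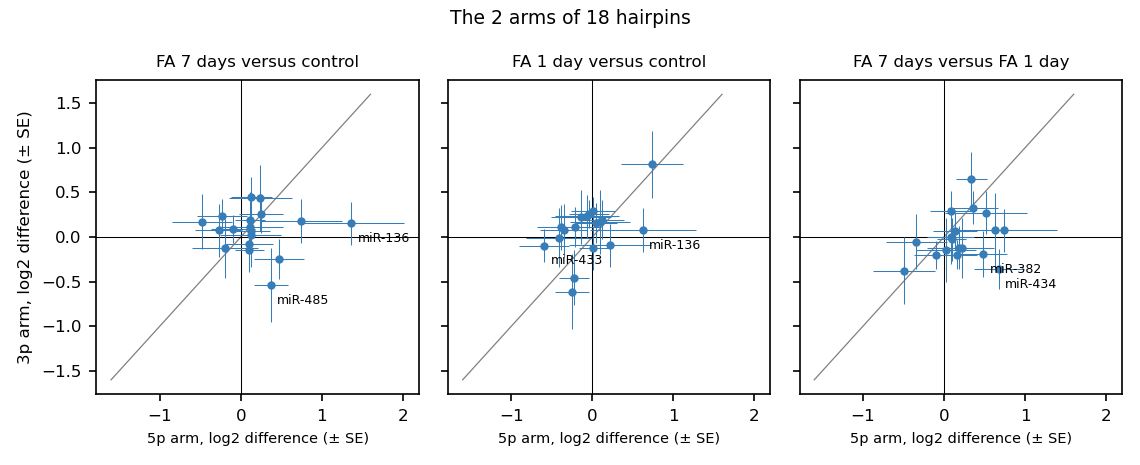
Log2 difference (± SE) of the 3p arm against that of the 5p arm for 18 hairpins, for FA 7 days versus control, FA 1 day versus control and FA 7 days versus FA 1 day from left to right, with the line of equality. The named hairpins have the widest gaps, 1.21 for miR-136 on the left (0.25 without control replicate 2) and 1.04 for miR-434 on the right.

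Members with near-identical sequence did not always give near-identical values. miR-376b-5p and miR-376c-5p differ at 1 base, at position 19 from the 5′ end, yet their differences after 7 days were 0.74 ± 0.51 and 0.12 ± 0.24, or 0.25 and 0.08 without control replicate 2. miR-376b-5p had 8.22, 8.35 and 6.86 after 7 days, 7.54, 6.92 and 7.43 after 1 day, and 7.34, 6.09 and 7.78 in control, and was detected on 7 of 9 arrays. Its value was low on FA 7 days replicate 3 and control replicate 2, the arrays that stand apart. miR-379-3p and miR-411-3p, which differ at 2 bases, had 0.11 and 0.02 after 7 days and 0.23 and 0.17 after 1 day. miR-300-3p and miR-381-3p, which differ at 3, had -0.13 and 0.26 after 7 days. A probe for one miRNA of such a pair may also bind the other. This was not tested, so the values of these pairs are uncertain.

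Of the 97 probes, 41 were not kept, 27 of them detected on no array. Of the members, 38 were detected on all 9 arrays, and 4 were kept through FA 1 day alone: miR-376b-5p, miR-380-3p, miR-369-5p and miR-539-5p. Their 1-day values had to be detected, so the choice of members favours high values there. miR-539-5p differed by -0.02 ± 0.21 in FA 7 days versus FA 1 day. Just inside the threshold of 30, by the lowest signal of the best group, were miR-539-5p at 32.5 and miR-381-5p at 34.75, and just outside were miR-496-3p at 29.25 and miR-376a-5p at 24.5.

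Other imprinted miRNAs showed nothing past the test either. Of 6 probes for miR-335, miR-296, miR-298, miR-675 or miR-483, 0 passed with limma in any comparison (1, 0 and 0 at an unadjusted p under 0.05), with medians of -0.09 after 7 days, -0.07 after 1 day and 0.03 between the exposures. The Sfmbt2 group, a rodent cluster of an imprinted gene, had 45 probes, 0 passed (0 also unadjusted), with medians of 0.08, 0.16 and -0.07 in the same order. Among markers of cell types, the 16 neuron and bulb probes had medians of 0.10, 0.13 and 0.05 in that order. Between the exposures 9 of these 16 were above 0 (49.6% of all probes). The 4 oligodendrocyte probes had medians of 0.40 after 7 days, -0.19 after 1 day and 0.65 in FA 7 days versus FA 1 day. In the last, 4 of 4 were above 0, beside the 9 of 10 members antisense to Rtl1. The summed intensity of the 4 oligodendrocyte probes was 1542 to 2394 after 7 days, 983 to 1555 after 1 day, and 1083 to 1797 in control. Medians of the leukocyte (4 probes), red blood cell (3), muscle (2), epithelium (10) and vessel lists (5) in that comparison were 0.06, -0.60, -0.16, -0.37 and -0.13. The part of other cell types in the values of the cluster was not tested.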

How the data were processed

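Per the file headers, the authors' raw table holds intensity values, foreground as well as foreground minus background, for 12312 spots on each of 9 arrays. Per the labels' protocols, total RNA was labelled with Hy3; the scanner is not given in the sources used. A ratio table was deposited too, in which 100% of the listed values lay within 1% of the median spot signal over background divided by 1 factor per array, so it is linear, with column medians from 0.0196 to 0.16. All columns were matched to samples by title, and samples to groups by the exposure in their labels.

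Background was corrected per spot with normexp (offset 50), each probe's 4 spots were averaged, and quantile normalization over 1084 miRNA probes and log2 followed, which hides any shift common to most miRNAs. limma 3.58.1 (R 4.3.3; lmFit and eBayes, group means over 9 arrays) tested 462 probes, two-sided, with Benjamini-Hochberg adjustment and a threshold of 0.05. The limma fit alone was tested on simulated log2 values before use. Their spread within groups was capped below the median SD within groups of the members (0.34). Background correction and normalization were not part of that test. Tables and figures used Python 3.11.15, pandas 2.3.3 and matplotlib 3.10.9. The median background was 35 to 49 per array. Among mouse probes detected on all 9 arrays, the median signal over background was 224 to 441 per array. The number of arrays limits the precision. No pair of arrays was equal at over 10.7% of spots.

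The members and lists were chosen with earlier results of these data known. Named are, per comparison, the 8 higher and 8 lower members with the smallest p, hairpins with both arms kept, members kept through 1 group, probes of several names and all members antisense to Rtl1. The 20 alternatives were other scaling, background, filter, weights, a replicate block and left-out arrays. The labels give no slide or scan day, so no batch was tested.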

Additional observations from a re-analysis of the deposited data

Results flagged for a closer look

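miR-134-5p, a miRNA known from dendritic spines of rat neurons, was not kept, as no group had it at 30 or more on all arrays. Its signal over background was 34.25, 33.0 and 12 after 7 days, 14.25, 14.5 and 18.75 after 1 day, and 8.25, 14.5 and 25 in control. It is given here because it was detected only on FA 7 days arrays, replicates 1 and 2, in data outside the comparisons, with a 7-day median of 33.0. The value on FA 7 days replicate 3 lies below 2 of the 3 control values, and no test was made.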

How the results depend on the processing

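Across 20 alternatives, 0 members passed in FA 7 days versus control and in FA 1 day versus control. In FA 7 days versus FA 1 day 0 passed under 19 of them, and 1 (miR-485-5p, 0.74, adjusted p = 0.0203) passed with array weights, which passed 7 of 462 probes and gave weights of 0.194 to FA 7 days replicate 3 and 0.207 to control replicate 2; the cause was not tested. Members at an unadjusted p under 0.05 numbered 0 to 11, 0 to 7 and 0 to 12 in the 3 comparisons over these alternatives. With array weights they reached these highest counts (19.6%, 12.5% and 21.4% of members, against 15.4%, 21.4% and 22.7% of all probes). Without control replicate 3 they were 9 after 7 days (16.1% of members, against 14.3% of all probes) and 7 after 1 day (12.5% against 14.5%), without FA 7 days replicate 3 they were 6 (10.7% against 11.3%) and 3 (5.36% against 10.6%), and without both arrays that stand apart 11 in FA 7 days versus FA 1 day (19.6% against 20.8%). The median of the members in FA 7 days versus control was -0.01 with median scaling, -0.05 without normalization and -0.04 from the deposited ratios, where that of all probes was -0.05, -0.09 and -0.01, against 0.06 with quantile normalization. In FA 1 day versus control it was -0.11 with median scaling and -0.13 without normalization, where the median of all probes was -0.09 and -0.11, a shift of over 0.1 from the 0.06 with quantile normalization. With 1 array left out the members' medians ran from 0.01 to 0.20 after 7 days, from -0.01 to 0.12 after 1 day and from -0.01 to 0.12 in FA 7 days versus FA 1 day. For the members antisense to Rtl1 the alternatives were chosen after seeing the data. Their median in FA 7 days versus FA 1 day ran from 0.26 to 0.45. In FA 1 day versus control it ran from -0.25 to 0.07, the lowest without control replicate 2. Leaving out control arrays alone, or the detection filter, cannot change a member's difference between the exposures. Under those settings the median between the exposures stayed at 0.33, so they say nothing on how firm it is. Of single members, 22, 20 and 28 kept their sign in the 3 comparisons under every alternative that tested them, which was all 20 for 48 members and 19 for the 8 that a detection limit of 50 left out.

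The replicate number as a block gave medians of 0.09, 0.05 and -0.00, with 0 members passing, and 6, 14 and 16 probes at an unadjusted p under 0.05, against 21, 29 and 38 without it. Deviations of same-numbered arrays correlated from -0.58 to 0.33, and those of differently numbered arrays from -0.42 to 0.55. With 3 arrays per group, each centred on its group mean, these values cannot decide whether the numbers pair the arrays.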
